A study of Mus musculus with 39 samples.

Results

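Fast skeletal muscle contractile genes were followed in brown fat stromal vascular cells of mice on 5 diets. They are the 10 genes Acta1, Myh1, Myh2, Myh4, Ckm, Tnnt3, Tnni2, Mylpf, Actn3 and Pvalb, found by their gene symbol in the deposited series table. These 10 genes are 10 of 29411 gene symbols, and they are read by 15 of 40628 probes, from which the brightest probe of each gene was taken. All 10 passed the filter on dim probes, which kept 34043 probes.

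C57BL/6J mice, a common laboratory strain, were weaned at 3 to 4 weeks of age and put at random into 5 groups of 30 animals. The low fat diet group (LFC) ate a normal diet with 10% of calories from fat and the high fat diet group (HFC) a diet with raised sucrose and 60% of calories from fat. The other groups ate the high fat diet with a botanical formulation named KAL-1 at 5 µg (HF5), 20 µg (HF20) or 75 µg (HF75). Every 3 weeks 5 animals of each group were killed. RNA labelled as brown infiltrating macrophages (SVCs) was put on 39 arrays with at most 1 array for a diet and time label and none for LFC at Week 6, which gave 10 arrays for LFC, 11 for HFC and 6 each for HF5, HF20 and HF75. LFC and HFC have arrays from Day 1 to Week 18 and the doses have arrays from Week 3 to Week 18. Weeks are counted from Day 14, so Day 14 and Week 0 name the same day. The series' design text speaks of 3 biological replicates, but the labels do not say how many animals or replicates stand behind an array. Arrays of different time labels were the replicates of a diet. In the diet and dose fits a p-value sets a difference against the spread left between arrays once time label is taken out. For late against early it is the spread left between arrays once period and diet are taken out.

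Skeletal muscle contracts when myosin heads of the thick filament pull on actin of the thin filament, and the troponin complex on the thin filament lets this happen only when calcium rises. Fast fibres, which contract quickly and tire early, carry their own forms of these proteins. Brown fat is not contractile, and these genes are known as markers of skeletal muscle fibres. Acta1 is the actin of the skeletal muscle thin filament. Tnnt3 and Tnni2 are the fast forms of troponin T, which binds tropomyosin, and troponin I, which blocks contraction at rest. Myh1, Myh2 and Myh4 are the myosin heavy chains of the IIx, IIa and IIb fast fibre types, and Mylpf is the phosphorylatable light chain of fast myosin. Actn3 anchors actin at the Z-disc of fast fibres. Ckm is muscle creatine kinase, which restores ATP from phosphocreatine, and Pvalb is parvalbumin, a calcium buffer that speeds relaxation of fast fibres.

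The arrays differed widely in brightness. Their 75th percentile of signal ran from 18.1 to 3974 intensity units with a median of 129.9, and 31.2% to 98% of spots were well above background. Outlier-marked spots made up over 10% on 3 arrays, HF20 Week 15 (71.4%), HF5 Week 12 (18.6%) and HFC Week 12 (11.1%). On HF20 Week 15 6 of the 10 genes had no value, so that array is described by Acta1, Myh2, Tnnt3 and Tnni2. Myh1 had no value on HF5 Week 12 and Tnnt3 had none on HFC Week 12, so 382 of 390 values were measured. Of 10 macrophage markers 6, such as Emr1 and Cd68, were well above background on all 39 arrays and the lowest was Itgam, on 28. Of 10 brown adipocyte markers 7, such as Ucp1 and Cidea, were so on all 39, with Elovl3 the lowest on 30, and of 9 general adipocyte markers 8, all but Lep (18 arrays). In RNA of mixed cells, fewer cells of a type and less RNA per cell cannot be told apart. For Day 14 the deposited table and the scanner files have LFC and HFC the other way round, with a correlation of -0.995 over probes, and the labels of the scanner files were used. The array called HF20 Week 12 is named HF20 in its title and source but its diet label reads as the high fat diet without KAL-1, and its place in HF20 rests on the title and source.

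The probes are 60 bases long, and some are shown so that a reader can see what they are made to read. The sequences of the brightest probes of Acta1, Ckm, Tnnt3, Mylpf and Actn3 and of the other probe of Myh4 read, 5′ to 3′,
Acta1: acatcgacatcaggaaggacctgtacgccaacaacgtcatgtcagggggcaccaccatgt
Ckm: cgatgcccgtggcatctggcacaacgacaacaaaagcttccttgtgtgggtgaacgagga
Tnnt3: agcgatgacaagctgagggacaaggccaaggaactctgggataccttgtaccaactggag
Mylpf: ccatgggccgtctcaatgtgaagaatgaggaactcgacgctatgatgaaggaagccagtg
Actn3: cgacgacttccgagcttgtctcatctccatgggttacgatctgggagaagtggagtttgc
Myh4: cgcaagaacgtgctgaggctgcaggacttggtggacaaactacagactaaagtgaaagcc
Each of these 6 has at least 1 reading frame without a stop, while the brightest probes of Myh1 and Myh4, not shown, have 0. The levels of Myh4 given below come from its brightest probe. No run of bases shared by probes of different members was longer than 12, and that run was shared by a dimmer Myh2 probe and the brightest Myh4 probe. Of the 5 further pairs within a gene, the Myh2 probes that overlap by 18 bases had a correlation of 1.00 over arrays, the Myh4 probes 0.99 and the Tnnt3 probes 0.96. The third Myh2 probe, well above background on 25 arrays, had 0.88. The second Myh1 probe did not follow its partner (r = 0.32, n = 36 arrays). It ran only from -4.98 to 1.01 where the brightest probe ran from -4.99 to 5.56, so Myh1 is known here from 1 probe.

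Levels are given as log2 signal minus the 75th percentile of the array, so 0 is a gene as bright as that percentile and a step of 1 is a doubling. On this scale the thin filament genes spanned wide ranges over the 39 arrays. Acta1 ran from -2.48 on HF5 Week 9 through a median of 3.48 to 6.34 on HF5 Week 3, a 450-fold range. Tnnt3 ran from -5.29 on HF5 Week 9 to 5.10 on HF20 Week 12 with a median of 2.50, and Tnni2 from -2.74 on HF5 Week 9 to 7.70 on HFC Week 3 with a median of 4.75. For all 3 genes the lowest array is HF5 Week 9.

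The thick filament genes did the same. Myh1 ran from -4.99 to 5.56 (median 0.94) and Myh2 from -3.07 to 6.19 (median 1.25), both from HF5 Week 9 to HF20 Week 12. Myh4 is the exception at the low end, with -2.86 on HFC Week 12 as its lowest level, a median of 2.42 and 7.16 on HF75 Week 18 as its highest. On HF5 Week 9 Myh4 was at -2.41. Mylpf had the narrowest range of the 10 genes, from -2.33 on HF5 Week 9 to 4.71 on HF20 Week 12 (median 2.07), which is 132-fold. Of the remaining genes, Actn3 ran from -6.47 to 3.58 (median -0.48) and Ckm from -6.99 to 3.74 (median -0.85), both from HF5 Week 9 to HF20 Week 12. Pvalb ran from -6.37 on HF5 Week 9 to 3.73 on HF5 Week 3 with a median of -0.46. These 3 genes were not well above background on HF5 Week 9, so their ranges are bounds, at least 1062-fold for Actn3, 1693-fold for Ckm and 1095-fold for Pvalb. Actn3 was not well above background on 3 arrays and Ckm and Pvalb on 7 each, while the other 7 genes were well above background on all 39. At the bright end, spots were saturated on 1 array for Acta1, 2 for Myh2, 3 for Tnni2 and 4 for Myh4, and HF20 Week 12 is among them for all 4 genes, so their levels there are lower limits. Without HF20 Week 12 the highest levels were 5.07 for Tnnt3, 5.38 for Myh1, 5.56 for Myh2, 4.46 for Mylpf, 3.57 for Actn3 and 2.98 for Ckm, and those of the other 4 genes were as given.

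These ranges are wide beside the rest of the array. The median range of all 24675 genes tested was 5.06 (33.3-fold) and the members ranged from 7.04 for Mylpf to 10.73 for Ckm. The share of genes with a range at least as large as that of the member was 1.11% for Ckm, 1.37% for Myh1, 6.12% for Acta1 and 21.4% for Mylpf. Without HF5 Week 9 and both Week 0 arrays the ranges were 5.76 for Acta1, 6.88 for Mylpf and 10.02 for Myh4. The range of all genes and the shares were not taken without these arrays, so they hold for the full set of arrays.

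**Figure D1:**
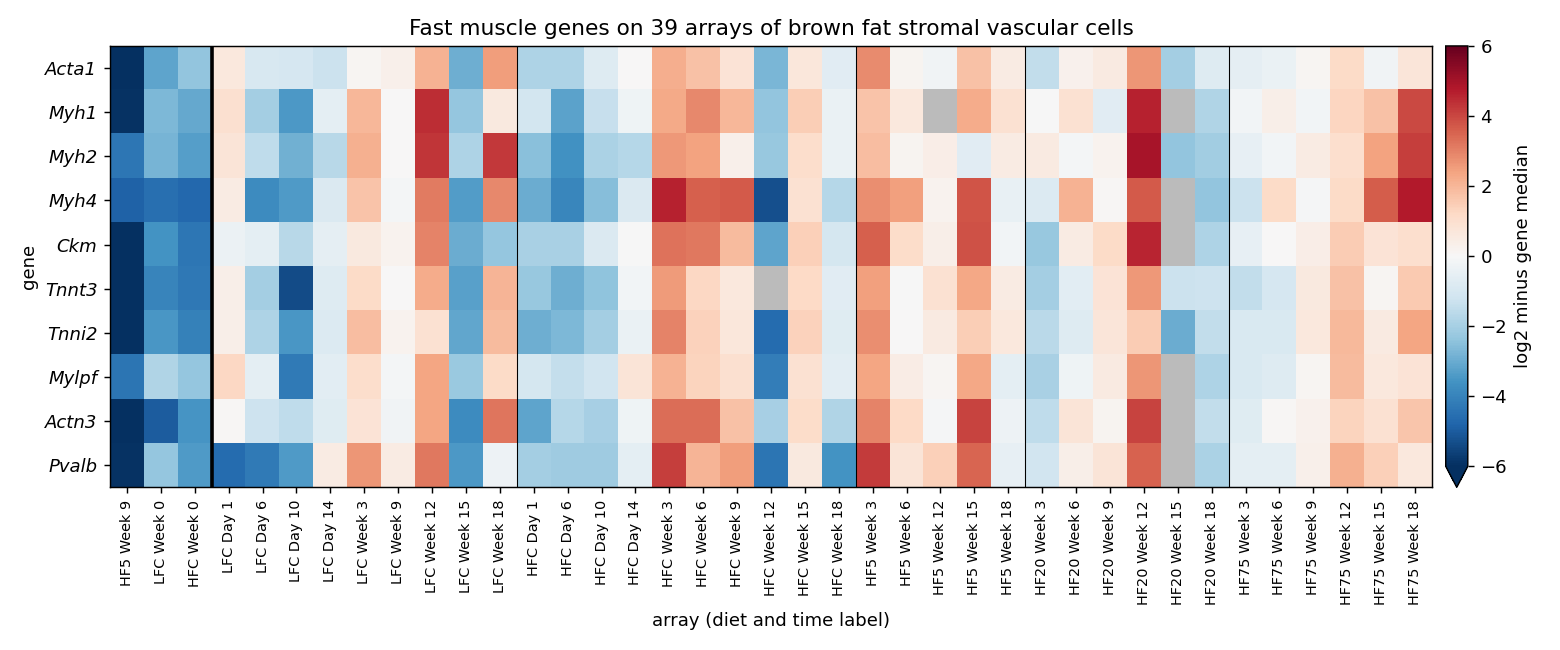
Each of the 10 fast muscle genes (rows) on each of the 39 arrays (columns), as log2 level minus the median of that gene over arrays, with red above and blue below the median, grey where no value was measured and colours limited at 6. HF5 Week 9 and the LFC and HFC arrays of Week 0 stand apart at the left of the thick line, and thin lines divide LFC, HFC, HF5, HF20 and HF75; columns are mostly of 1 colour from top to bottom.

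The 10 genes moved together from array to array. Over the 45 pairs of genes, Pearson's r across arrays ran from 0.71 (Myh2 and Pvalb) to 0.97 (Tnnt3 and Tnni2) with a median of 0.86. Without HF5 Week 9 and Week 0 it ran from 0.62 (Myh2 and Ckm) to 0.94 (Tnnt3 and Tnni2), with a median of 0.83. Against the mean of the other 9 genes, r was lowest for Myh2 (0.86) and Pvalb (0.87) and highest for Tnni2 and Tnnt3 (both 0.95). All genes of an array share its RNA and its scaling, so these are descriptions with no p. The arrays' 75th percentile had r = -0.09 and the share of spots above background r = -0.23 with the mean of the members over 39 arrays.

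The agreement was not complete, and single genes left the others on single arrays. The largest departure was that of Pvalb on LFC Day 1, where it was at -5.08 and not above background while Acta1 was at 4.12 and Tnni2 at 5.12, and Pvalb was 4.62 below the place set by its own median and the mean of all members on that array. Ckm did likewise on LFC Week 18, with a level of -3.18 and a departure of -3.92, while Acta1 (5.99) and Actn3 (2.72) were near their highest there. Myh2 departed both ways. It was 3.12 below its place on HF5 Week 15, at 0.58 where Myh4 reached 6.18, and 2.66 above it on LFC Week 18, at 5.49. Myh4 was 2.57 above its place on HF75 Week 18 and 2.42 above it on HF75 Week 15. The difference between the Myh2 and Myh4 probes therefore shifted by array, from 4.74 below its median on HF5 Week 15 to 2.69 above it on HFC Week 12. Myh4 was saturated on HF5 Week 15, so the first of these is a lower limit of the size. The SD of departures over arrays was highest for Pvalb (1.18), Myh4 (1.15) and Myh2 (1.07) and lowest for Tnni2 (0.65).

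To describe arrays, the member level of an array was taken as the mean over its measured genes of the level minus the median of that gene over arrays. In LFC this level ran from -3.33 (Week 0) to 2.80 (Week 12) with a median of -0.37 over 10 arrays, and in HFC from -3.54 (Week 0) to 3.01 (Week 3) with a median of -1.16 over 11. In HF5 it ran from -5.88 (Week 9) to 2.76 (Week 3) with a median of 0.55. In HF20 it ran from -2.17 (Week 15, on 4 genes) to 3.48 (Week 12, with 0.44 the next highest) with a median of -0.47, and in HF75 from -0.76 (Week 3) to 2.17 (Week 18) with a median of 0.74. All 5 diets overlap, with an SD of 1.12 in HF75 (n = 6) and 3.12 in HF5 (n = 6). The SD of HF5 rests on Week 9 and was 1.23 without it (n = 5).

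Diets did not keep their order from one time label to the next. At Week 3 the high arrays were HFC (3.01) and HF5 (2.76) and the low ones HF20 (-1.24) and HF75 (-0.76). At Week 12 the high arrays were HF20 (3.48) and LFC (2.80), and HFC was at -3.44. HFC Week 12 had 11.1% outlier-marked spots. It was also the lowest of all 39 arrays for the brown adipocyte markers, at -4.69 from their gene medians. At Week 15 HF5 was at 2.46 and LFC at -2.93. Between the lowest and the highest diet of a time label lay from 2.54 (Week 6) to 7.40 (Week 9) log2 units from Week 3 on, and 0.22 (Week 0) to 2.17 (Day 1) before, with 4 or 5 arrays for a late label and 2 for an early one. At Week 9 this rests on HF5, and the other 4 arrays lay between 0.08 and 1.52. HF75 read -0.76, -0.22, 0.27, 1.52, 1.20 and 2.17 from Week 3 to Week 18, with no repeat of any of these arrays.

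**Figure D2:**
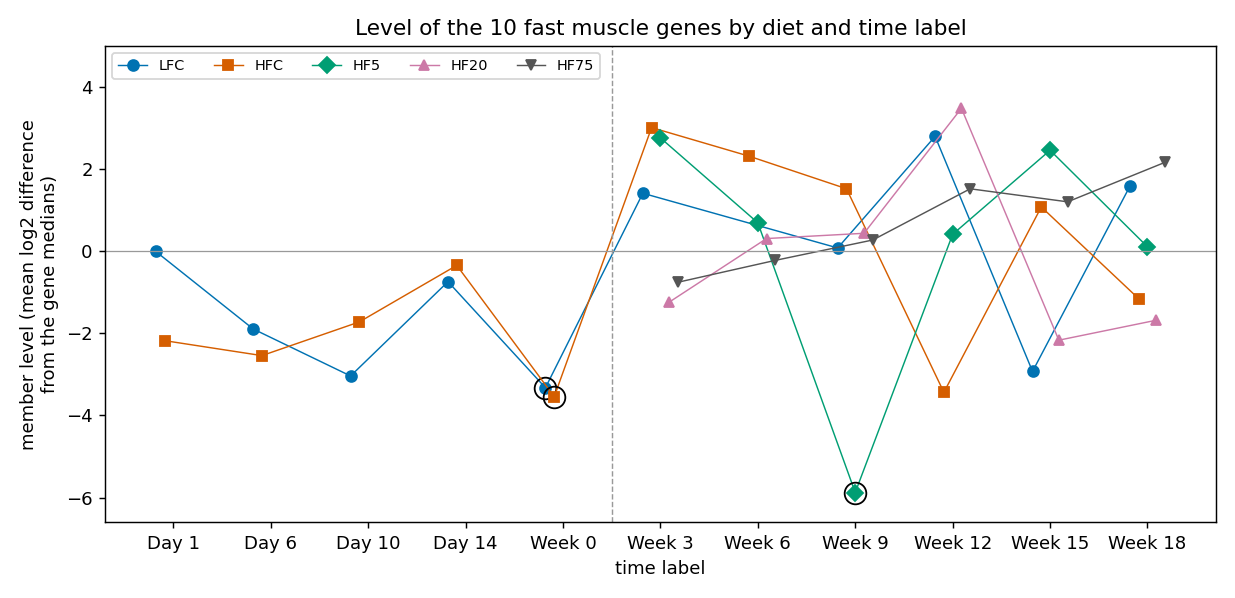
Member level of each array (y axis, mean log2 difference from the gene medians) by time label (x axis), with 1 symbol per array and 1 colour per diet, thin lines joining arrays of a diet and the dashed line dividing early from late labels. The circled arrays are HF5 Week 9 (-5.88) and Week 0 of LFC (-3.33) and HFC (-3.54); from Week 3 on the diets cross.

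HF5 Week 9 and both Week 0 arrays are shown apart. HF5 Week 9 had the lowest member level of all 39 arrays, and all 10 genes were among their own 5 lowest arrays there. Against the HFC array of Week 9, scanned on the same date, Myh4 was at -2.41 and 6.12, Tnnt3 at -5.29 and 3.15, Acta1 at -2.48 and 4.28 and Myh2 at -3.07 and 1.56. Myh4 was at least 369-fold lower, since its HFC spot was saturated, and Myh2 was 24.8-fold lower, the smallest difference. Pvalb, Ckm and Actn3 were not well above background on HF5 Week 9 and were at least 347-fold, 261-fold and 213-fold lower. All 10 genes were at least 4-fold lower, and 1.73% of 34027 probes were, while 1.94% of probes and 0 of the 10 genes were at least 4-fold higher. With 1 array on each side there is no test.

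Week 0 and Day 14 name the same day and were scanned on different dates. In LFC, Acta1 was at 0.32 on Week 0 and 2.21 on Day 14, Myh4 at -2.10 and 1.54 and Tnnt3 at -1.44 and 1.72. All 10 genes were lower on Week 0, with differences from -1.15 (Myh2) to -3.64 (Myh4) on the log2 scale among the 8 genes measured above background on both arrays. Ckm and Actn3 were not well above background on Week 0 and were at least 8.26-fold and 18.8-fold lower. At least 4-fold lower were 7 of the 10, against 22.9% of 34013 probes, and 1.05% of probes and 0 of the 10 were at least 4-fold higher. In HFC, Acta1 was at 1.13 and 3.48, Myh4 at -2.28 and 1.56 and Tnnt3 at -1.79 and 2.36. Here 9 of the 10 genes were at least 4-fold lower on Week 0, all but Myh2 (2.94-fold), with Ckm not well above background there and at least 20.2-fold lower, against 29.8% of 34032 probes, and 2.11% of probes and 0 of the 10 were at least 4-fold higher. Against Day 14, the Week 0 arrays were thus lower over a large share of all probes, which HF5 Week 9 was not against HFC Week 9. The median difference of all probes was -0.49 in LFC, -0.52 in HFC and 0.09 for HF5 Week 9. The Week 0 arrays were also brighter, with a 75th percentile of 222 against 77.8 on Day 14 in LFC and 215 against 46.8 in HFC. For HF5 and HFC of Week 9 it was 1076 and 918. The part of brightness in these shares was not tested.

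**Figure D3:**
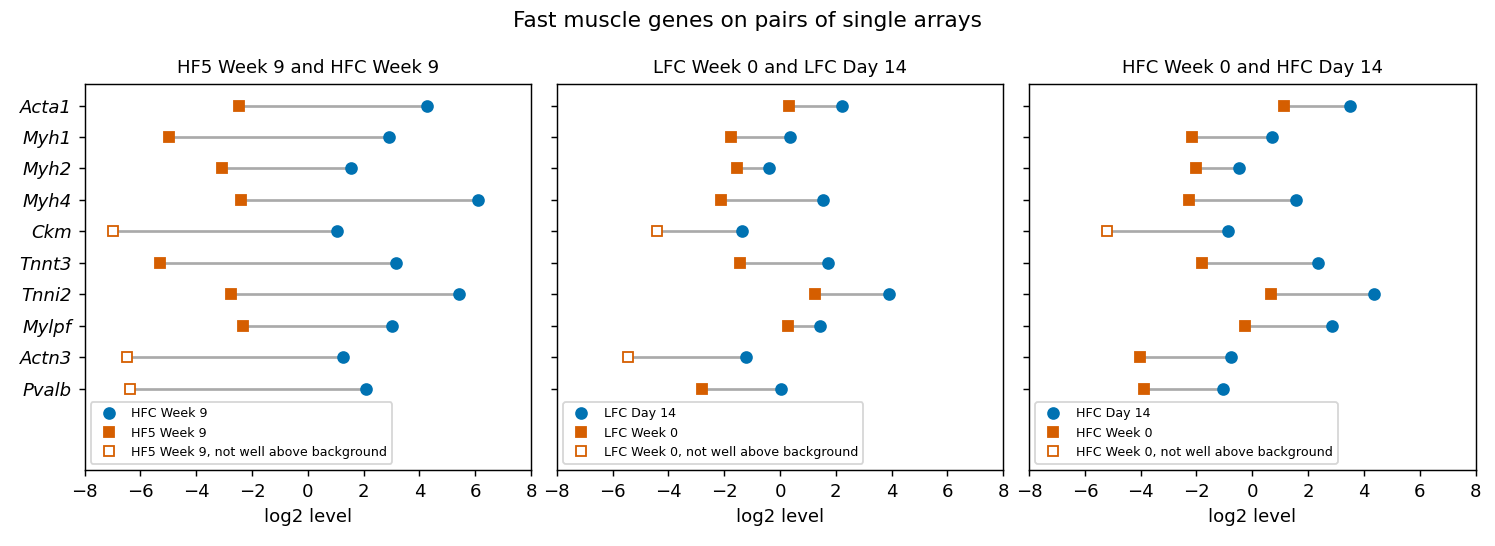
Log2 level (x axis) of the 10 genes (y axis) on HF5 Week 9 and HFC Week 9, LFC Week 0 and LFC Day 14, and HFC Week 0 and HFC Day 14, with circles for the array named second, squares for the array named first and open squares where the spot was not well above background. Every square lies to the left of its circle, with differences of -4.63 or below in the Week 9 pair and of -1.15 or below in the pairs of Week 0; open squares, and Myh4 on HFC Week 9, which was saturated, give limits.

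The diets were then compared over time labels, to ask whether the level of these genes goes with fat or with the dose. In LFC Acta1 ran from 0.32 to 5.99 (median 3.06, n = 10) and in HFC from 0.74 to 5.68 (median 2.82, n = 11). Myh4 ran from -2.10 to 5.53 (median 1.93) in LFC and from -2.86 to 7.06 (median 0.70) in HFC. For both genes one group spans nearly the range of the other. In a limma fit with time label as a block, the HFC minus LFC difference had a median of -0.13 over the 10 genes. It was lowest for Myh2 (-1.09, 95% interval -2.83 to 0.64) and highest for Tnnt3 (0.46, -1.41 to 2.33), and 0 of the 10 genes passed an adjusted p of 0.05, as did 0% of 34043 probes (959 had an unadjusted p under 0.05). The members' median was positive at 5 of 10 time labels and negative at 5. It ran from -6.52 at Week 12 to 4.15 at Week 15, and both of these pairs shared a scan date. The Week 12 pair includes HFC Week 12, with 11.1% outlier-marked spots and the lowest level of the brown adipocyte markers (-4.69). Without Week 12 the median of the fit was 0.44, with 0 genes passing. Without the arrays titled BA or BAT the median was 0.94 and the lowest member was at 0.21, with 0 genes passing. Tnnt3 had no value on HFC Week 12, where the other 9 genes were lower than in LFC.

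Of the doses, HF5 ran for Acta1 from -2.48 to 6.34 (median 3.83), HF20 from 1.45 to 6.12 (median 3.23) and HF75 from 2.93 to 4.66 (median 3.44), with n = 6 each. For Myh4 they ran from -2.41 to 6.18 (median 3.75), from 0.04 to 6.09 (median 2.48, n = 5) and from 1.15 to 7.16 (median 3.58). All overlap the HFC arrays. In the same fit the median difference from HFC over the 10 genes was -0.45 in HF5, -0.37 in HF20 and 0.10 in HF75, and 0 of the 10 genes passed in any of the 3, as did 0% of probes. Tnnt3 had differences of -1.36 in HF5 (95% interval -3.70 to 0.97), -1.39 in HF20 (-3.73 to 0.94) and -0.83 in HF75 (-3.17 to 1.51). Tnnt3 had no value on HFC Week 12, where HFC was low for the other genes, and without Week 12 the members' medians were -0.91, -1.64 and -0.67. The 3 doses share the HFC arrays, so these values are not independent of each other. Without HF5 Week 9 the median in HF5 was 0.77, and without HF20 Week 12 the median in HF20 was -1.37, with 0 genes passing in either. Over time labels scanned on the same date the medians were -0.50 in HF5, 2.11 in HF20 (3 labels) and 2.17 in HF75 (2 labels), and without BA or BAT titles 0.56, -1.60 and 0.11, again with 0 genes passing. Over the dose rank (HFC, HF5, HF20, HF75; 24 arrays) the slope per step ran from -0.29 for Tnnt3 (95% interval -1.13 to 0.55) to 0.24 for Myh2 (-0.54 to 1.01), with 0 of 10 genes and 0% of probes called (2395 had an unadjusted p under 0.05). Its median was 0.08, and 0.02 without HF20 Week 12.

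The late arrays (Week 3 to Week 18) were set against the early ones (Day 1 to Week 0) in LFC and HFC. Myh2 ran from -2.37 to 2.04 on the 10 early arrays (median -0.97) and from -1.02 to 5.56 on the 11 late arrays (median 2.30), so that the groups overlap and the late median lies above every early array. The difference was 3.30 (SE 0.74, 95% interval 1.77 to 4.83, limma adjusted p = 0.0408), and Myh2 rose. It was the 1 member that passed, where 0.705% of 34043 probes passed in either direction and 0.0852% passed as higher late. Tnnt3 (-2.86 to 2.87 early, -0.77 to 5.07 late) differed by 3.10 with an adjusted p of 0.0639, with no value on HFC Week 12, where other members were low. Myh4 (-2.28 to 2.90 early, -2.86 to 7.06 late) had the largest difference, 3.64 (SE 1.09), with an adjusted p of 0.110. Myh1, Actn3, Tnni2 and Pvalb differed by 2.64, 2.65, 2.42 and 2.78 with adjusted p of 0.102 to 0.180. Ckm (1.93), Acta1 (1.64) and Mylpf (1.38, 95% interval -0.17 to 2.93) had the smallest differences and adjusted p of 0.223 to 0.364. All 10 estimates were above 0 with a median of 2.64, where all probes had a median of -0.18.

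The call of Myh2 held without LFC Day 1, LFC Day 10, LFC Week 9, HFC Week 12 or LFC Week 15 and was lost without any of the other 16 arrays. Without both Week 0 arrays its difference was 3.07 with a limma adjusted p of 0.105. Each scan date holds a single time label, so time and scan date cannot be told apart, and with the scan date as a random block the limma adjusted p of Myh2 was 0.0852. The difference between late and early was 3.24 in HFC and 3.37 in LFC for Myh2, and their difference of -0.13 (SE 1.51, limma adjusted p = 1.00) was not past the threshold for it or for any member.

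**Figure D4:**
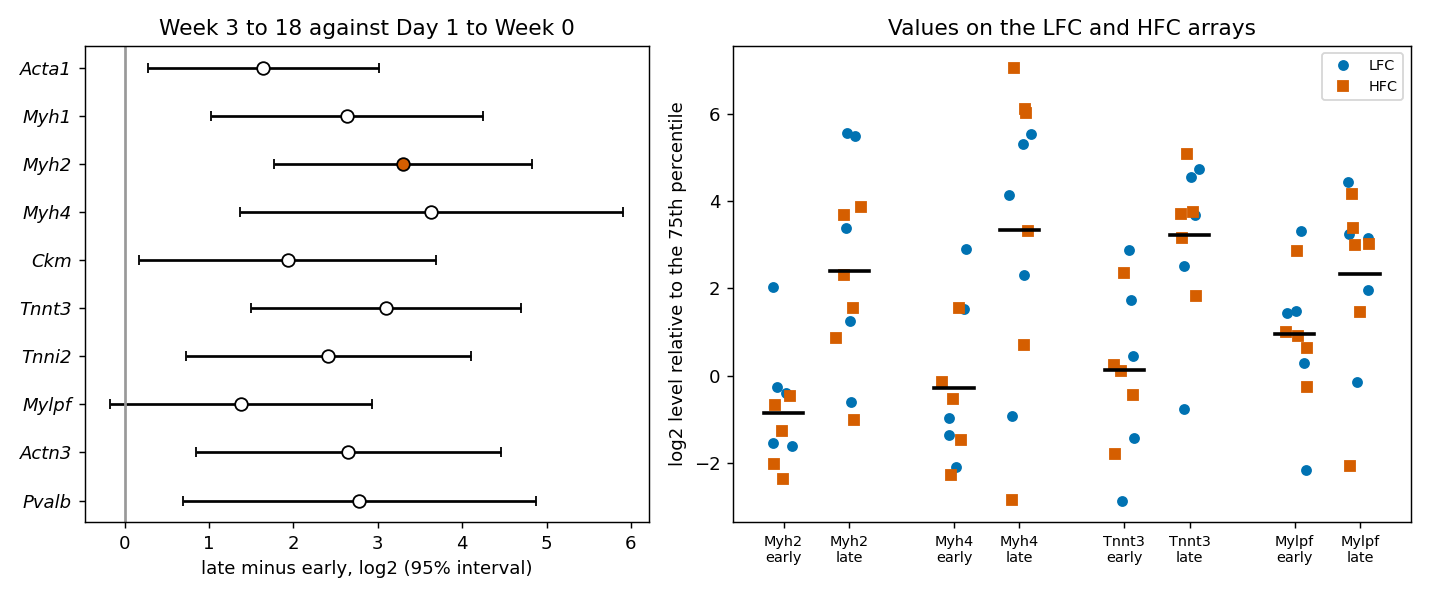
Left, late minus early log2 difference of each gene with its 95% interval, filled where the adjusted p is under 0.05; right, log2 levels of Myh2, Myh4, Tnnt3 and Mylpf on the 10 early and 11 late arrays of LFC (circles) and HFC (squares), with the mean as a bar and no value of Tnnt3 on HFC Week 12. All 10 estimates lie above 0 and Myh2 is the filled one; in each of the 4 genes the early and late arrays overlap.

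Other genes of the fast fibre followed the members as a list, though not each of them. The median gene had r = 0.88 with the member level, Jsrp1 had 0.63 and Cacng1, the lowest, 0.15. In a list of 17 (Tnnc2, the fast troponin C, Myl1, the essential light chain, Mybpc2, fast myosin binding protein C, Atp2a1, the fast calcium pump, and 13 more) the level of the list had r = 0.98 with the member level over 39 arrays and 0.97 without HF5 Week 9 and Week 0. In the late against early comparison 1 of the 17 was called higher, Mybpc2 (3.43, SE 0.78, limma adjusted p = 0.0418), and the median was 1.67. Of all 34043 probes 0.0852% were called higher late. With normexp background 0 probes were called higher late. The same held without BA or BAT titles (with or without Week 0), in HFC or LFC alone, and without Day 1 or Day 6. This call and that of Tcap below were thus lost in each of these. Of 18 genes of fibres of either kind, such as the giant proteins Ttn and Neb and the oxygen store Mb, 1 was called higher, Tcap, the titin cap (3.28, SE 0.71, limma adjusted p = 0.0393), and the median was 2.01. The median gene of this list had r = 0.83 with the member level, while Des had 0.37 and Tpm2, the lowest, 0.03. Slow fibre genes were mixed. Their list of 8 had r = 0.77, and the slow myosin Myh7 ran from -5.80 to 6.11 over the arrays with r = 0.88, while the slow troponins Tnnt1, Tnni1 and Tnnc1 had r of 0.63, 0.69 and 0.62, but Tpm3 had -0.38 and Casq2 -0.04. The slow list had a median of 2.27 late against early with 0 of 8 called. Myh8, the perinatal myosin next to Myh4 on chromosome 11, had r = 0.94 and Myh3, the embryonic myosin, r = 0.11.

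Genes were counted by symbol, and symbols that may name the same gene were not merged. Among all 24665 genes other than the members, 49 (0.199%) had r of 0.8 or more with the member level, where the median gene had -0.01. The 10 with the highest r were Trdn (0.97), Ckmt2 (0.97), Myoz1 (0.97), Myom2 (0.96), Atp2a1 (0.95), Cacna1s (0.95), Cox6a2 (0.95), Cmya3 (0.94), Lrrc30 (0.94) and Myh8 (0.94). Trdn, Cacna1s and Atp2a1 act in the release and return of calcium, Myoz1 and Myom2 in the Z-disc and M-band, and Ckmt2 and Cox6a2 in muscle mitochondria. Of the 40 genes with the highest r, 22 were in the fast, slow or general fibre lists, which hold 17, 8 and 18 genes. These lists were written with earlier results of these data known, so the count is a description and not independent support.

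Lists of other cells had lower r, with the adipocyte lists the highest of them. Smooth muscle genes (Acta2, Myh11, Cnn1, Tagln and 4 more) had r = -0.23 as a list, heart genes 0.15 and satellite cell and myogenic genes (Pax7, Myod1, Myog and 3 more) 0.34. Macrophage genes had -0.08, fibroblast genes -0.16 and endothelial genes -0.37. Brown adipocyte genes (Ucp1, Cidea, Dio2, Cox8b and 6 more) had 0.53 and general adipocyte genes 0.43, and without HF5 Week 9 and Week 0 these were 0.65 and 0.58. On HF5 Week 9 itself the adipocyte lists were at 0.90 and 1.39 above their gene medians, smooth muscle was at -2.71 and macrophage at -0.61. Neutrophil genes (-5.35), erythroid (-3.65), Schwann (-2.55), B cell (-2.53) and T cell genes (-1.95) were also low there. Low levels on this array were thus not confined to muscle genes (fast fibre list -3.69), and not every muscle gene was low. Myl1 was at 4.41 (median 3.84), Actn2 at -0.73 (-1.55), Des at 0.32 (-0.57) and Tmod4 at -2.30 (-2.32). The other genes of the fast, slow and general fibre lists were below their medians there. Late against early, 10 of 10 brown adipocyte genes had estimates above 0 with a median of 0.80 and 6 of 6 endothelial genes had estimates below 0 with a median of -1.32, and 0 of either were called. Their part in the levels of the muscle genes was not tested. The remaining lists (T cell, B cell, neutrophil, erythroid and Schwann) had r between -0.12 and 0.09.

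**Figure D5:**
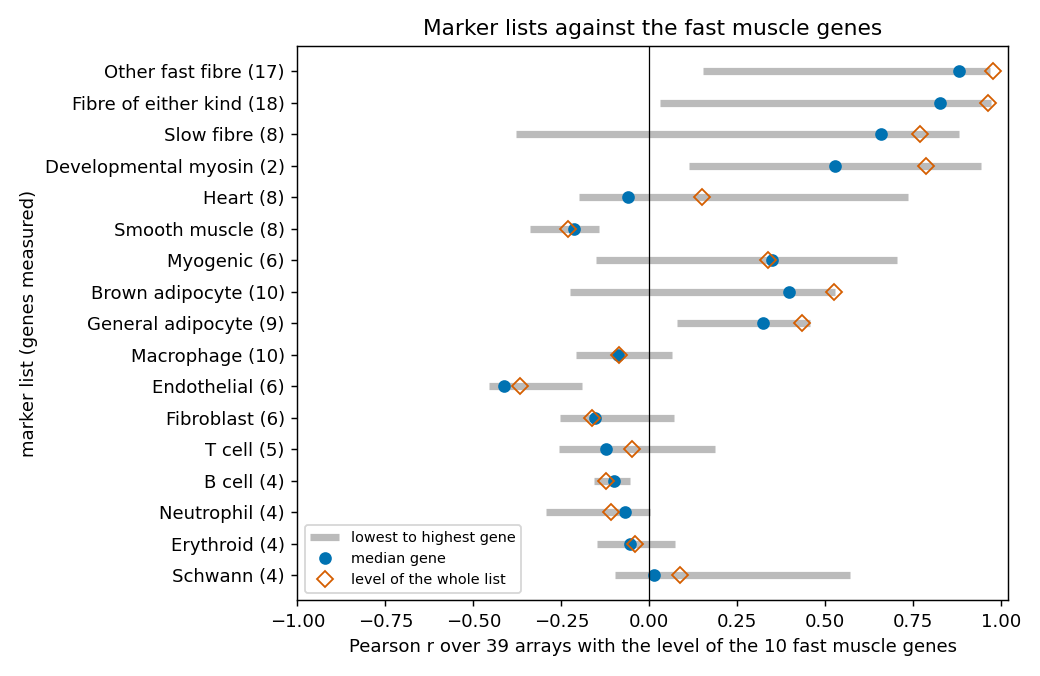
Pearson r over 39 arrays with the level of the 10 fast muscle genes (x axis) for each marker list (y axis, genes measured in brackets), with a grey bar from the lowest to the highest gene, a circle at the median gene and a diamond for the level of the whole list. The fast fibre list lies at 0.98, slow fibre at 0.77 and macrophage at -0.08.

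Titles also differ between arrays. The 9 arrays with BA or BAT in the title include HF5 Week 9, the lowest, and HF20 Week 12, the highest. Against other arrays of the same time label their member level was higher by 0.65 at Day 6, 3.64 at Week 12, 3.17 at Week 15 and 1.73 at Week 18. It differed by -2.17 at Day 1 and -2.44 at Week 9. At Day 1, Day 6 and Week 18 there was 1 such array. The other arrays include HFC Week 12 (-3.44, 11.1% outlier-marked spots), HF5 Week 12 (18.6%) and HF20 Week 15 (-2.17 on 4 genes, 71.4%). The Week 9 value rests on HF5, since the other such array, HFC, was at 1.52 against 0.26 for the remaining arrays of that label. What the tokens stand for is not given in the sources used here, and their part in the levels was not tested.

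Promoters of some members share letters, and the part of this in their levels was not tested. RefSeq promoters (build GRCm38.p6) were given for 7 of the 10 genes, and the 250 bases before the start are shown for Acta1 and for the myosins, which lie side by side on chromosome 11 in the order Myh2, Myh1, Myh4. Capitals mark the E-box of myogenic factors (CAGCTG), the MEF2 and CArG motifs by name, and the TATA motif (TATAAA), each searched on both strands.
Acta1 (chr8:123894776-123895025, minus strand): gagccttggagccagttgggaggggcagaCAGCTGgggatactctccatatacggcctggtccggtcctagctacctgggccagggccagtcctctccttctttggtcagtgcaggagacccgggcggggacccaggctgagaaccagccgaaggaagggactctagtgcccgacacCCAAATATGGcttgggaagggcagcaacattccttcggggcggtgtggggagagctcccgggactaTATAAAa
Myh2 (chr11:67170777-67171026, plus strand): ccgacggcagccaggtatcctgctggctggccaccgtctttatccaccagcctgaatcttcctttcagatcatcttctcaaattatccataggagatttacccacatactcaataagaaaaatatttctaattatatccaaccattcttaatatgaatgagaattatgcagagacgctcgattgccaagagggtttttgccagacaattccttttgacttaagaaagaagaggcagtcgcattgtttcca
Myh1 (chr11:67199852-67200101, plus strand): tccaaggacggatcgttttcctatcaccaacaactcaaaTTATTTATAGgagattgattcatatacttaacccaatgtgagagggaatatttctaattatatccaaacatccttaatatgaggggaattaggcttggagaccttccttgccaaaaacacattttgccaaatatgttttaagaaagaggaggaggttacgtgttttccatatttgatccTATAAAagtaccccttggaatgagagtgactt
Myh4 (chr11:67237562-67237811, plus strand): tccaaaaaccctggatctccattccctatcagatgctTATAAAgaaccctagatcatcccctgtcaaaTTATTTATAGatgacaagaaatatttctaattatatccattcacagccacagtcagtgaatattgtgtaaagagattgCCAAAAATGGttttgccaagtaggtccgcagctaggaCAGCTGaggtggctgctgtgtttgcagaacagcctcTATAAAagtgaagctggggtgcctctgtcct
The 3 myosin promoters share runs of 20 or 21 bases, such as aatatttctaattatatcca, while no other pair of the 7 shared more than 9. CAGCTG was in 4 of the 7 promoters (Acta1, Myh4, Ckm and Mylpf) and in 13% of 32851 promoters of the same length. The CArG motif was in 2 of 7 (Acta1 and Myh4) and in 1.47% of all, the MEF2 motif in 2 of 7 (Myh1 and Myh4) and in 2.92%, with a further match in a second window given for Pvalb that was not counted, and TATAAA in 3 of 7 and in 12.4%. In Myh1 and Myh4 a TATAAA lies inside the MEF2 motif. The wider E-box CANNTG, which includes CAGCTG, was in 5 of 7 and in 66.2% of all. A match is a run of letters and not a measured site.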

How the data were processed

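RNA labelled as brown infiltrating macrophages (SVCs) was measured on 39 Agilent 1-colour arrays. The authors deposited scanner files of spot intensity, which per the file headers were made with Feature Extraction 10.5.1.1 (the labels name 9.1), and a series table of log2 fold changes, deposited by the authors, which was used for gene symbols, probe sequences and as an alternative. The genome build is not given in the sources used here.

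Levels are log2 of the processed signal minus the 75th percentile of the array. Outlier-marked spots were dropped, probes well above background on at least 6 arrays were kept, and the brightest probe stands for a gene. Diet and dose fits used limma 3.58.1 in R 4.3.3 with diet or dose rank and time label as terms. The late against early fit had period and diet as terms. All used Benjamini-Hochberg adjustment over all kept probes and a threshold of 0.05. Intervals are 95% and cover the spread between arrays; the number of arrays limits the precision. Tables and figures used Python 3.11.15, numpy 2.4.6, pandas 2.3.3 and matplotlib 3.10.9, and the random blocks statmod 1.5.0. The fits were tested on simulated data. The members, the gene lists and the tests were chosen with earlier results of these data known. The genes named are the members, the genes of the lists and the 10 genes most like the member level. Alternatives covered scaling, background, filters, weights, blocks and left-out arrays.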

Additional observations from a re-analysis of the deposited data

Results flagged for a closer look

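HF5 Week 9 lay far below the other HF5 arrays for 4 genes and for the mean of the members. Acta1 was at -2.48 where the next HF5 array was at 3.27, Myh1 at -4.99 with the next at 1.59, Tnnt3 at -5.29 with the next at 2.49 and Tnni2 at -2.74 with the next at 4.75. The member level was -5.88 with the next at 0.11. In each case the gap was a larger share of the range of the group than Dixon's 95% limit allows. These were 5 of 45 groups tested, where chance marks about 1 in 20. All 5 come from 1 array that had already been set apart with these values known, so they describe that array and add no evidence beyond it. The cause was not tested.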

How the results depend on the processing

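The late minus early estimate was positive for every member in each alternative that tested it (53 for 7 members, and 52 for Ckm, Actn3 and Pvalb, which the filter on all arrays removed), and 0 members were called between diets or over dose in any. The adjusted p of Myh2 (limma) ran from 0.00904 to 0.741 and was under 0.05 in 17 of the 53, of which 4 (without HF5 Week 9, HF20 Week 12 or HF20 Week 15, which are not in this comparison, and the slide block, with a correlation of 0) repeat the reported value by construction. Late against early, 11 probes were called with array median scaling, 0 with normexp, 71 with no filter, 1322 with array weights, 47 with the scan date as a random block, 48 without Week 0 (with or without HF5 Week 9), 363 without arrays of over 10% marked spots, 1 without BA or BAT titles, 0 without these and Week 0, 1 in HFC alone and 0 in LFC alone. Among the 9854 probes above background on all arrays, 125 were called higher late and 143 lower, with 2 of the 7 members tested called. Of the 10 members, 3 were called with array weights, 3 without arrays of over 10% marked spots, and 0 with median scaling, normexp, no filter, the mean of all probes, the scan block, without Week 0, without BA or BAT titles, without both, or in 1 diet alone. Leaving out 1 array or label gave 4 to 936 probes and 0 to 5 members, with the 5 members and 936 probes without LFC Week 15 and 3 members and 363 probes without HFC Week 12. Between HFC and LFC, 2 probes were called with quantile normalization, median scaling, the filter on all arrays or without BA or BAT titles, 24 with weights, and 1 without HF20 Week 12 or HF20 Week 15, and leaving out a label gave 0 to 1. For HF75, 1 was called with weights, 3 without BA or BAT titles and 8 within the same scan date. For the dose slope, 3 were called with weights and 0 to 7 when a label was left out. The median of all probes late minus early was -0.18, and -0.02, 0.26 and -0.51 with quantile, median and normexp scaling.

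Time labels served as the block. The deviations of HFC and LFC arrays of the same label had r from -0.54 to 0.81, over 0.1 at 5 of 10 labels, so labels did not all pair arrays. Without the block the members' median was -0.01 for HFC minus LFC and 0.58, 0.80 and 1.20 for HF5, HF20 and HF75 minus HFC, with 0 members called. The alternatives on the Day 14 labels, the LFC and HFC diets alone, single arrays and HF20 Week 15 were chosen after seeing the data. Arrays in which a gene is near background bound its low levels.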
